A study of Homo sapiens with 4 samples.

Results

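The genes described here are 8 genes linked to drug efflux, read in all 4 RNA-seq libraries of a glioblastoma study: *ABCB1*, *ABCC1*, *ABCC2*, *ABCC3*, *ABCC4*, *ABCC5*, *ABCG2* and *MVP*. They were chosen by name from 58226 gene identifiers, and each matched 1 Ensembl identifier in GENCODE release 29. Of the 8, 7 encode ATP-binding cassette (ABC) transporters, and *MVP* encodes the major vault protein, which is not a transporter. U87MG is an established glioblastoma cell line, and R-U87MG is its temozolomide (TMZ)-resistant derivative, which was kept in 50 μM of this alkylating drug. Whether R-U87MG is a single clone is not stated in the sources used here. The 4 libraries were R-U87MG with non-targeting siRNA (R-U87MG si-NC), R-U87MG with siRNA against the deacetylase *HDAC6* (R-U87MG si-HDAC6), U87MG with non-targeting siRNA (U87MG si-NC) and U87MG with siRNA against the long noncoding RNA *LINC00461* (U87MG si-LINC00461). All cells were transfected with a siRNA, and RNA was taken 72 h later. Each condition had 1 library, so no test of a difference was possible, and every interval below is a 95% exact binomial (Clopper-Pearson) interval that covers counting error only.

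ABC transporters use ATP to move substrates across membranes. *ABCB1* (P-glycoprotein) and *ABCG2* (breast cancer resistance protein) expel many lipophilic drugs and are known from the endothelium of the blood-brain barrier. The ABCC members, the multidrug resistance-associated proteins, carry organic anions, among them drugs joined to glutathione, glucuronide or sulfate. The major vault protein forms the shell of the vault, a large cytoplasmic ribonucleoprotein particle found at high levels in many drug-resistant lines.

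The libraries held between 12596072 and 20027866 fragments. In R-U87MG, *HDAC6* had 296 fragments with si-NC and 67 with si-HDAC6, and in U87MG, *LINC00461* had 363 with si-NC and 73 with si-LINC00461, so both targets were lower where the labels place the knockdown. Both targets were also lower in R-U87MG si-NC than in U87MG si-NC, with log2 ratios of −1.13 for *HDAC6* and −1.23 for *LINC00461*. Among 9 glial and glioma markers, *VIM*, *CD44*, *NES* and *CHI3L1* were counted in every library. *AQP4* was listed at 0 in all 4, and the astrocyte gene *GFAP* had at most 13 fragments. Only 5 of the 9 were high enough to be compared between the lines. Those listed at 0 were 3 in R-U87MG si-NC, 2 in R-U87MG si-HDAC6, 2 in U87MG si-NC and 1 in U87MG si-LINC00461. *CDKN2A*, *CDKN2B* and *MTAP*, which are deleted in U87MG, summed to at most 1.07 CPM (fragments scaled to a fixed library total). Markers of other cells were low: 5 leukocyte genes summed to between 0.200 and 0.635 CPM, 4 epithelial genes to between 6.75 and 10.5 CPM, and 5 endothelial genes to between 2.70 and 30.2 CPM, the last with 24.4 CPM from *PECAM1* alone in U87MG si-LINC00461. The endothelial gene *TEK* differed with the line, with 85 and 74 fragments in U87MG si-NC and si-LINC00461 and 2 and 1 in R-U87MG si-NC and si-HDAC6. The glial gene *OLIG2* had a log2 ratio of 2.58 in R-U87MG si-NC over U87MG si-NC. Of the 5 glial and glioma markers compared, *OLIG2* alone was higher. The other 4 had an interval below 0, the lowest ratio being −1.51 for *CHI3L1*. The part of these markers in the results below was not tested.

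The promoter windows of *ABCG2*, *ABCC2* and *ABCC5* are shown because these genes differed by 2-fold or more in a comparison below. Each is a RefSeq window on GRCh38.p14, read 5′ to 3′ on the gene's strand, from 250 bases before a transcript start to 50 bases after it. Capitals mark the letters of the motifs searched on both strands. *ABCG2* has 5 such windows, and the one shown lies 3 bases from a transcript start in GENCODE, on the minus strand at chr4:88158860-88159159. The *ABCC2* window is on the plus strand at chr10:99782390-99782689, and that of *ABCC5* is on the minus strand at chr3:184017835-184018134.
ABCG2: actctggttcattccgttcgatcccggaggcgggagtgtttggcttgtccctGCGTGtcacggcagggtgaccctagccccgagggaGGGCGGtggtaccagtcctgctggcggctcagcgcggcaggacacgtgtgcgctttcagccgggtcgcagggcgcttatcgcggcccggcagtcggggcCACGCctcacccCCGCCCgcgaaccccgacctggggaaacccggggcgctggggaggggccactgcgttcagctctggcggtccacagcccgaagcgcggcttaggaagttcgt
ABCC2: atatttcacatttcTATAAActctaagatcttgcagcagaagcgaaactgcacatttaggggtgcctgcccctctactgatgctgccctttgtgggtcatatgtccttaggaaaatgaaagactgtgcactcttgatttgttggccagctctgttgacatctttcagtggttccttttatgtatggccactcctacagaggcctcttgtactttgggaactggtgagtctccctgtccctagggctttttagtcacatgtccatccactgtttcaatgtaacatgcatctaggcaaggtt
ABCC5: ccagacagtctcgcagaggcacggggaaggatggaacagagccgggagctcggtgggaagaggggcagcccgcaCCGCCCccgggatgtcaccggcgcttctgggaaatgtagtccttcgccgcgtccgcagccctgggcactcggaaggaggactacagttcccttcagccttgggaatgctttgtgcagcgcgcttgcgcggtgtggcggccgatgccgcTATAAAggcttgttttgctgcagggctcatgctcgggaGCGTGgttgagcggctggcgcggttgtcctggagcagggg

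The motifs were the GC box GGGCGG, the core GCGTG of the xenobiotic response element, the core TGACNNNGC of the antioxidant response element, the inverted CCAAT box ATTGG and the TATA box TATAAA. Over 35116 RefSeq windows of 300 bases, these were found in 45.0%, 36.5%, 13.3%, 34.6% and 11.5%, respectively. The *ABCG2* window shown held 2 GC boxes and 2 GCGTG cores, with 70.0% G and C and 33 CpG dinucleotides. Not all of its other windows held these motifs. The one at chr4:88159241-88159540 held 1 TGACNNNGC core at 48.3% G and C, and the one at chr4:88231577-88231876 held no motif. The window at chr4:88158810-88159109 overlaps the one shown and held the same 2 GC boxes and 2 GCGTG cores. The window at chr4:88158590-88158889 held 2 GCGTG cores. The *ABCC2* window was unlike the *ABCG2* window shown, with 45.0% G and C, 1 CpG and a single TATA box far upstream of the start, against medians of 58.7% and 14 CpG over all windows. The *ABCC5* window held 1 GC box, 1 GCGTG core and 1 TATA box shortly before the start. Of the other genes with windows, *ABCC4* had 3 GCGTG cores and 1 TGACNNNGC core in a window of 79.7% G and C. The 2 windows of *ABCB1* held 1 GCGTG core and 2 ATTGG boxes in all, and the 3 windows of *MVP* held 1 ATTGG box. In all, 6 of the 8 genes had a window, and *ABCC1* and *ABCC3* did not. These matches are descriptions of letters and no factor was measured on them.

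The first question was how strongly each gene was expressed. Levels between genes are given per length, in TPM (fragments per base of transcript, scaled to a fixed total) over the summed exons of each gene and relative to the whole library. In such bulk samples fewer expressing cells and less RNA per cell cannot be told apart. *MVP* was the highest of the 8 in every library, at 309 TPM in U87MG si-NC, 281 in U87MG si-LINC00461, 227 in R-U87MG si-NC and 268 in R-U87MG si-HDAC6. *ABCB1* was the lowest in every library, with 5, 8, 1 and 2 fragments in the same order of libraries, or between 0.0427 and 0.322 TPM. The other genes lay between 0.742 and 58.2 TPM. Of all detected genes in U87MG si-NC, 98.1% lay below *MVP* and 38.5% lay below *ABCG2*.

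**Figure D1:**
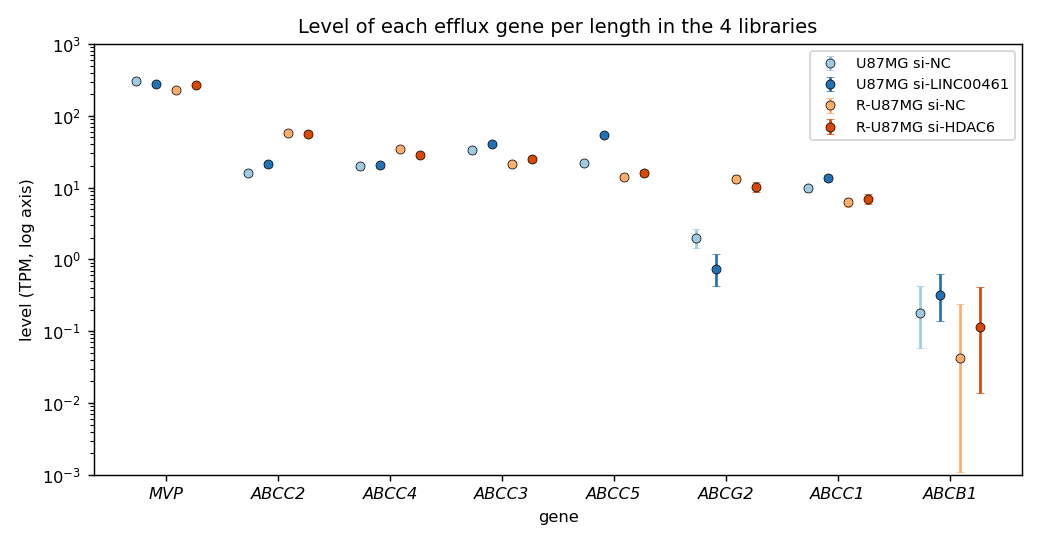
Level of each gene in TPM (log axis) in the 4 libraries, with 95% counting intervals. *MVP* sat above 200 TPM throughout, and *ABCB1* sat below 1 TPM throughout. *ABCG2*, *ABCC2* and *ABCC4* were higher in both R-U87MG libraries (orange) than in both U87MG libraries (blue).

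The order of the genes differed between the lines. In U87MG si-NC the order below *MVP* was *ABCC3* (33.2 TPM), *ABCC5* (21.8), *ABCC4* (19.8), *ABCC2* (15.9), *ABCC1* (9.75), *ABCG2* (1.97) and *ABCB1* (0.182), and the intervals of *ABCC5* and *ABCC4* overlapped. In R-U87MG si-NC it was *ABCC2* (58.2 TPM), *ABCC4* (34.1), *ABCC3* (21.1), *ABCC5* (14.0), *ABCG2* (13.3), *ABCC1* (6.22) and *ABCB1* (0.0427), and the intervals of *ABCC5* and *ABCG2* overlapped. R-U87MG si-HDAC6 had the same order as R-U87MG si-NC, with overlapping intervals for *ABCC4* and *ABCC3*. In U87MG si-LINC00461, *ABCC5* came directly below *MVP* at 54.1 TPM, followed by *ABCC3* (41.1), *ABCC2* (21.1), *ABCC4* (20.4), *ABCC1* (13.7), *ABCG2* (0.742) and *ABCB1* (0.322), and the intervals of *ABCC2* and *ABCC4*, and of *ABCG2* and *ABCB1*, overlapped. With the longest transcript in place of the summed exons, *ABCC3* (30.9 TPM) came above *ABCC4* (29.5) in R-U87MG si-HDAC6, so the orders of the R-U87MG libraries were then no longer the same, and *ABCC4* (21.57) came above *ABCC2* (21.52) in U87MG si-LINC00461. Both pairs had overlapping intervals with the summed exons. The order in both si-NC libraries did not change with this length, but their pairs with overlapping intervals moved apart. *ABCC5* and *ABCC4* were then at 31.6 and 20.8 TPM in U87MG si-NC. In R-U87MG si-NC, *ABCC5* and *ABCG2* were at 20.2 and 11.2 TPM.

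The summed level of the 7 ABC transporters was 102.7 TPM in U87MG si-NC, 151.4 in U87MG si-LINC00461, 146.8 in R-U87MG si-NC and 142.4 in R-U87MG si-HDAC6. *ABCC2* made up 39.6% of this sum in R-U87MG si-NC and 39.5% in R-U87MG si-HDAC6, against 15.5% in U87MG si-NC and 13.9% in U87MG si-LINC00461. *ABCC3* was the largest part in U87MG si-NC, at 32.3%, and *ABCC5* in U87MG si-LINC00461, at 35.8%. *ABCG2* made up 9.03% in R-U87MG si-NC and 1.92% in U87MG si-NC. The sums are scaled by total fragments. Between the lines, that scaling gives log2 ratios 0.26 higher than the scaling used for the ratios below.

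**Figure D2:**
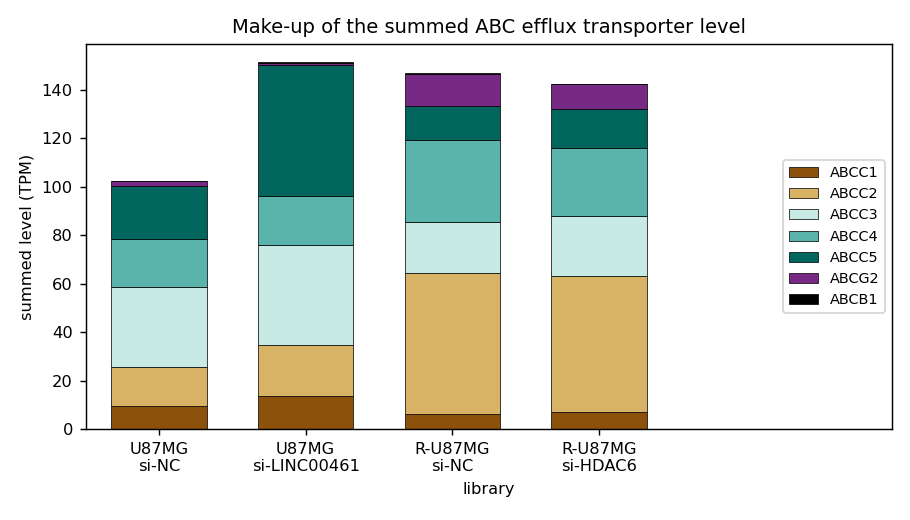
Summed level in TPM of the 7 ABC transporter genes in each library, divided by gene. The tan *ABCC2* block is the largest in both R-U87MG libraries, and the dark green *ABCC5* block is the largest in U87MG si-LINC00461.

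The comparison of R-U87MG si-NC with U87MG si-NC asked how the genes differed between the resistant and the parental line. *ABCG2* and *ABCC2* were higher in R-U87MG, *ABCC4* was moderately higher, and *ABCC1*, *ABCC3*, *ABCC5* and *MVP* were lower. Ratios are log2 ratios of fragments after scaling the pair of libraries by trimmed mean of M values (TMM), with 0.5 added to each count, for genes with a mean of at least 1 CPM. Of 13349 genes so compared, 11.2% were at least 2-fold higher in R-U87MG and 15.0% at least 2-fold lower, and the interval lay wholly above 0 for 39.4% and wholly below 0 for 38.8%. Among the efflux genes 7 were compared: 2 reached 2-fold higher and 0 reached 2-fold lower, 3 had an interval above 0 and 4 an interval below 0. Their median log2 ratio was −0.67, beside 0.02 over all genes. The resistance, the drug in the medium and the culture history cannot be told apart in this comparison. Scaling by total fragments adds 0.26 to every log2 ratio here, and gives 2399 genes higher and 1494 lower in place of 1494 higher and 2008 lower. It left the 2-fold calls and the directions of all 7 genes as they were.

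**Figure D3:**
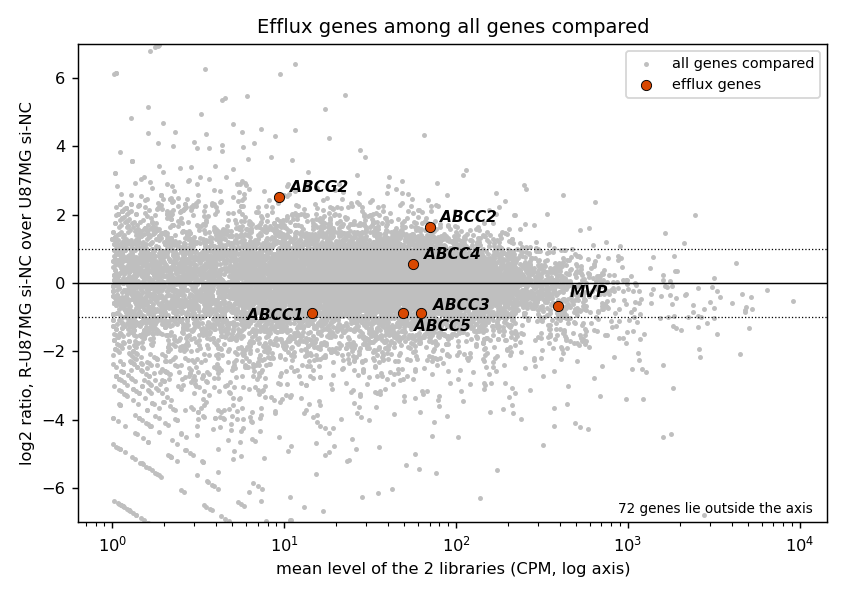
Log2 ratio of R-U87MG si-NC over U87MG si-NC against mean level in CPM (log axis) for the 13349 genes compared, with the efflux genes in orange and dotted lines at 2-fold. *ABCG2* and *ABCC2* lie above the upper dotted line, and the other 5 lie between the lines.

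*ABCG2* had 47 fragments in U87MG si-NC and 270 in R-U87MG si-NC, and also 16 in U87MG si-LINC00461 and 158 in R-U87MG si-HDAC6. Both U87MG libraries were low and both R-U87MG libraries were high. The log2 ratio between the si-NC libraries was 2.51 (interval 2.07 to 3.0), a 5.71-fold higher level in R-U87MG, and it ranked 129 from the highest of 13349. In GENCODE *ABCG2* spans chr4:88090264-88231322 (GRCh38, minus strand), and none of its exonic 50-base stretches occurs in another gene.

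*ABCC2*, an exporter of organic anions best known from the bile-facing membrane of hepatocytes, had 591 fragments in U87MG si-NC, 706 in U87MG si-LINC00461, 1840 in R-U87MG si-NC and 1348 in R-U87MG si-HDAC6. Again both R-U87MG libraries lay above both U87MG libraries. The log2 ratio between the si-NC libraries was 1.64 (1.51 to 1.78), or 3.12-fold, rank 478 from the highest. The gene spans chr10:99782640-99852594 (plus strand).

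*ABCC4*, which exports cyclic nucleotides and nucleotide analogs, had 810 fragments in U87MG si-NC and 1188 in R-U87MG si-NC, and a log2 ratio of 0.56 (0.43 to 0.69). In U87MG si-LINC00461 it had 752 fragments, or 42.3 CPM (39.3 to 45.4). In R-U87MG si-HDAC6, a smaller library, it had 746, or 59.2 CPM (55.1 to 63.6). The si-NC libraries had 40.4 CPM in U87MG and 71.4 in R-U87MG. Both R-U87MG libraries thus lay above both U87MG libraries for *ABCC4*. Its position is chr13:95019829-95301475 (minus strand).

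The remaining ABCC members were lower in R-U87MG by similar factors. *ABCC1*, the founding member of the multidrug resistance-associated proteins and a carrier of glutathione conjugates, had 350 fragments in U87MG si-NC and 190 in R-U87MG si-NC, a log2 ratio of −0.88 (−1.14 to −0.62). *ABCC3*, an organic anion carrier of basolateral membranes, had 1512 and 817, a log2 ratio of −0.88 (−1.01 to −0.76). *ABCC5*, a carrier of cyclic nucleotides, had 1183 and 645, a log2 ratio of −0.87 (−1.01 to −0.73). The intervals of these ratios overlapped one another, and all lay below 0 and reached or passed −1. Their positions are chr16:15949577-16143074 (plus strand) for *ABCC1*, chr17:50634777-50692252 (plus strand) for *ABCC3* and chr3:183919934-184018015 (minus strand) for *ABCC5*.

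*MVP* had 8987 fragments in U87MG si-NC and 5636 in R-U87MG si-NC, a log2 ratio of −0.67 (−0.72 to −0.62), or 1.59-fold lower in R-U87MG. It spans chr16:29820394-29848039 (plus strand), and 154 of its exonic bases are shared with *AC120114.4* on the same strand, which had at most 4 fragments in a library. Of the other vault genes, *TEP1*, the telomerase-associated vault protein, had a log2 ratio of 0.99 (0.74 to 1.25), from 199 to 395 fragments, and the vault polymerase *PARP4* one of 0.28 (0.19 to 0.37). With scaling by total fragments *TEP1* passed 2-fold. The 4 vault RNA genes were listed at 0, with upper limits between 6.08 and 13.5 TPM, so these values do not show that they were silent.

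*ABCB1* was too low to compare. Its 5 fragments in U87MG si-NC and 1 in R-U87MG si-NC correspond to 0.250 CPM (0.0811 to 0.583) and 0.0601 CPM (0.00150 to 0.335), and these intervals overlap, so a difference was not detectable at this depth. It spans chr7:87503633-87713323 (minus strand), and 2.02% of its exonic 50-base stretches occur in its neighbour *ABCB4*.

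In R-U87MG, si-HDAC6 was compared with si-NC to see whether lowering *HDAC6* moved the genes in resistant cells. None of the 7 differed by 2-fold, and *ABCG2*, *ABCC2* and *ABCC4* kept levels above those of both U87MG libraries. Of 13120 genes compared, 0.694% were at least 2-fold higher and 0.747% at least 2-fold lower, and the interval lay above 0 for 13.8% and below 0 for 16.4%. Of the 7, 0 were at least 2-fold higher or lower, 3 had an interval above 0 and 2 below 0, and the median log2 ratio was 0.17, beside −0.01 over all genes. *ABCG2* had the lowest log2 ratio, −0.38 (−0.67 to −0.09), followed by *ABCC4* with −0.28 (−0.41 to −0.15). The highest were *MVP*, with 5031 fragments and a log2 ratio of 0.23 (0.17 to 0.28), *ABCC3*, with 724 and 0.22 (0.07 to 0.36), and *ABCC5*, with 558 and 0.18 (0.02 to 0.35). The intervals of *ABCC1*, which had 163 fragments and a log2 ratio of 0.17 (−0.14 to 0.48), and *ABCC2*, −0.06 (−0.16 to 0.04), held 0. Over all genes, the central 90.0% of log2 ratios ran from −0.42 to 0.44, and all 7 ratios lay inside that range. *ABCB1* had 2 fragments against 1.

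In U87MG, si-LINC00461 was compared with si-NC to see whether lowering *LINC00461* moved the genes in parental cells. *ABCC5* was higher and *ABCG2* lower by more than 2-fold. Of 13210 genes compared, 5.42% were at least 2-fold higher and 8.17% at least 2-fold lower, and the interval lay above 0 for 33.1% and below 0 for 33.4%. Of the 7, 1 was at least 2-fold higher and 1 at least 2-fold lower, 4 had an interval above 0 and 2 below 0, and the median log2 ratio was 0.35, beside −0.00 over all genes. *ABCC5* had 1183 fragments with si-NC and 2649 with si-LINC00461, a log2 ratio of 1.35 (1.25 to 1.45), or 2.55-fold, rank 343 from the highest. The U87MG si-LINC00461 library was thus the highest of the 4 for *ABCC5*, and R-U87MG si-NC, with 645 fragments, was at the low end with R-U87MG si-HDAC6, with 558. *ABCG2* had 47 and 16 fragments, a log2 ratio of −1.34 (−2.29 to −0.52). This ratio rests on few fragments, and its interval reached above −1.

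Among the others, *ABCC1* went from 350 to 444 fragments, a log2 ratio of 0.53 (0.33 to 0.74), *ABCC2* had 0.44 (0.28 to 0.60), and *ABCC3* went from 1512 to 1690, a log2 ratio of 0.35 (0.25 to 0.45). *ABCC4* had 0.08 (−0.07 to 0.23) and *MVP*, which went from 8987 to 7384, had −0.10 (−0.14 to −0.05). *ABCB1* had 8 fragments against 5. The comparison of the lines and this one share the U87MG si-NC library. For *ABCG2* the log2 ratios were 2.51 between the lines and −1.34 with si-LINC00461, and for *ABCC5* they were −0.87 and 1.35.

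**Figure D4:**
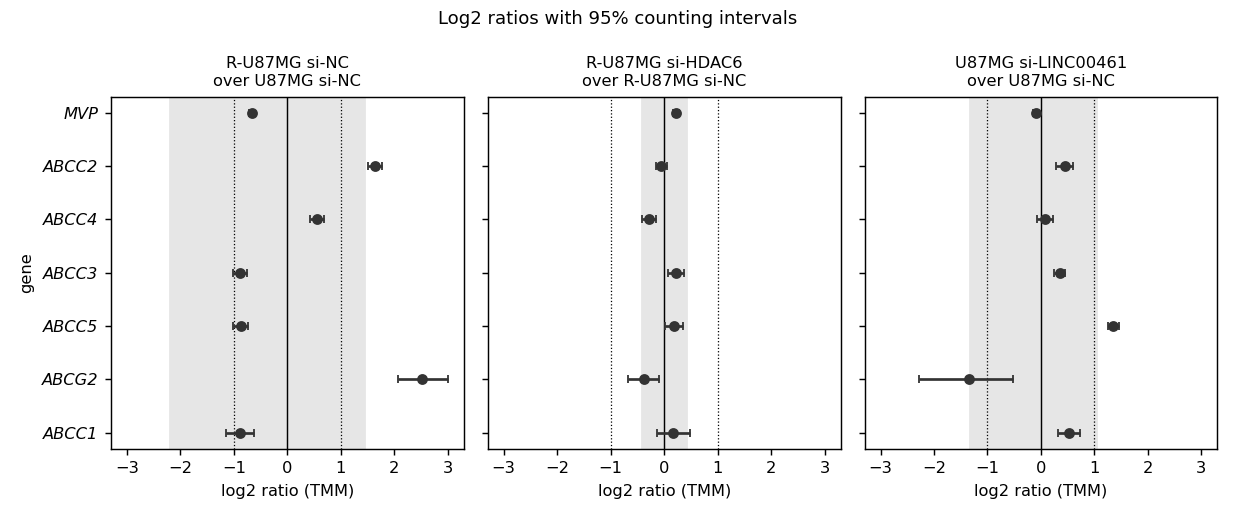
Log2 ratios of the 7 genes compared, with 95% counting intervals, in the 3 comparisons. Grey bands hold the central 90.0% of all genes compared, and dotted lines mark 2-fold. *ABCG2* and *ABCC2* lie above the band between the lines, no gene leaves the band with si-HDAC6, and *ABCC5* lies above and *ABCG2* just below it with si-LINC00461.

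The other 41 genes of the ABC family, not all of which encode transporters, gave the spread of the wider family between the lines. Of 20 compared, 4 were at least 2-fold higher in R-U87MG and 6 at least 2-fold lower, beside 11.2% and 15.0% of all genes compared. Their median log2 ratio was −0.15, which became 0.12 with scaling by total fragments. *ABCA13*, a large lipid transporter, went from 24 to 179 fragments, a log2 ratio of 2.88 (2.28 to 3.58). Those lower included *ABCB4*, the phosphatidylcholine floppase next to *ABCB1*, from 64 to 3 fragments, and the lipid transporter *ABCA2* with −2.56 (−2.69 to −2.43). *ABCA1*, the cholesterol exporter, was among the highest of these genes, at 234.6 TPM in U87MG si-NC and 86.0 in R-U87MG si-NC, and the ATPase *ABCF2* was the other, at 77.7 and 195.8 TPM. *ABCC9*, a potassium channel subunit, and *ABCE1*, a ribosome recycling factor, were the remaining genes at least 2-fold higher in R-U87MG. They are named after their values were seen, with log2 ratios of 1.63 (1.48 to 1.78) and 1.64 (1.54 to 1.74). With si-HDAC6, 0 of 19 compared were 2-fold higher or lower, beside 0.694% and 0.747% of all genes. With si-LINC00461, 1 of 20 was 2-fold higher and 3 lower, beside 5.42% and 8.17%. *ABCF1* and *TAP1* were listed at 0 in every library, and since *ABCF1* is broadly expressed, these values may be failed estimates and do not show that the genes were silent.

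**Figure D5:**
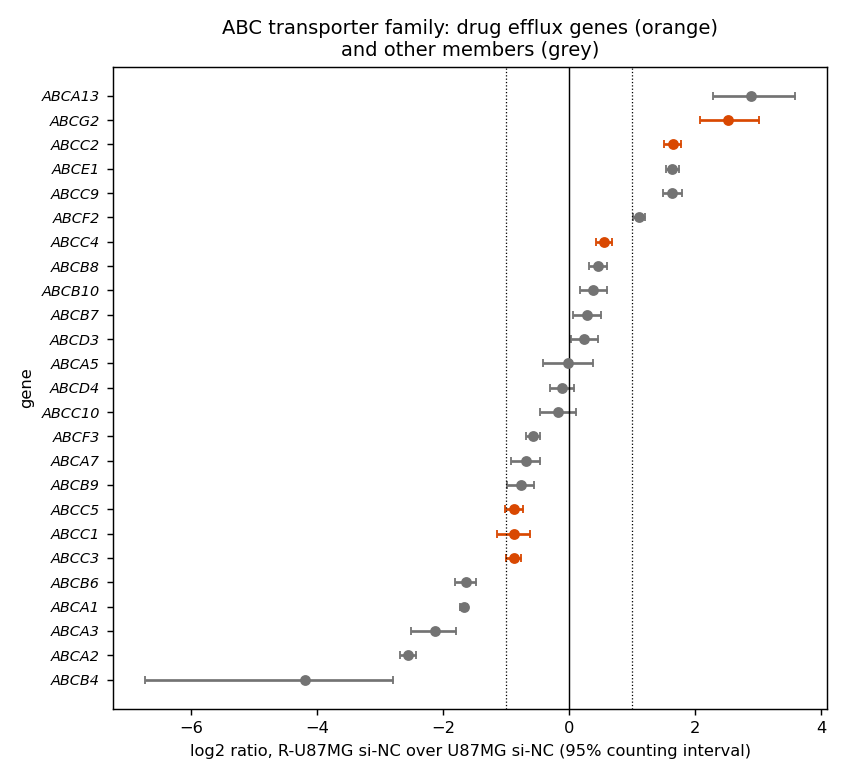
Log2 ratio of R-U87MG si-NC over U87MG si-NC, with 95% counting intervals, for ABC family genes compared, 1 of the other members not drawn: drug efflux genes in orange and the other family members, not all of them transporters, in grey. *ABCG2* and *ABCC2* lie near the top, close to *ABCA13*, *ABCE1* and *ABCC9*, and *ABCB4* lies lowest.

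Genes that act beside efflux were counted in the same comparison of the lines, where 11.2% of all genes were at least 2-fold higher and 15.0% at least 2-fold lower. Of 28 genes of glutathione and conjugation, 17 were compared, 3 were at least 2-fold higher and 2 at least 2-fold lower, and the 3 became 6 with scaling by total fragments. The quinone reductase *NQO1* went from 2315 to 9322 fragments, a log2 ratio of 2.01 (1.95 to 2.08), *GSTM5* from 6 to 61, *GSTM2* had −1.84 (−2.22 to −1.49) and the glutathione-cleaving *GGT1* −2.07 (−2.30 to −1.84). *GSR*, the glutathione reductase, was the third gene at least 2-fold higher, with 1.32 (1.23 to 1.41), and is named after its value was seen. The glutathione transferase genes *GSTM2* and *GSTM5* belong to a family of close copies, so their counts are uncertain.

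The same shares of all genes, 11.2% higher and 15.0% lower, stand beside the counts of the next lists. Of 19 regulators of efflux genes, 16 were compared, 0 were 2-fold higher and 1 was 2-fold lower. This was *ETS1*, with −1.09 (−1.16 to −1.02), which fell short of 2-fold with scaling by total fragments. The xenobiotic receptor *AHR* had −0.87 (−0.95 to −0.79) and the oxidative stress factor *NFE2L2* 0.69 (0.60 to 0.78). *RXRB*, among the 3 not compared, was listed at 0 or 1 in every library, to which the same doubt applies. *YBX1* and *HIF1A* had the highest levels of the list in U87MG si-NC, at 1707 and 800.9 TPM. Of 26 drug uptake carriers, led in level by the copper carrier *SLC31A1* at 76.3 TPM in U87MG si-NC, 9 were compared, 1 was 2-fold higher, the nucleoside carrier *SLC29A1* with 1.07 (0.91 to 1.24), and 3 were 2-fold lower, led by *SLCO4A1* with −1.96 (−2.17 to −1.77). Both MATE exporters, *SLC47A1* and *SLC47A2*, were too low to compare. Of 8 genes that anchor transporters at the membrane, 7 were compared, and 1 was 2-fold lower, the caveolae protein *CAV1* with −1.37 (−1.41 to −1.33).

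The genes whose pattern over the 4 libraries was most like that of *ABCG2* and *ABCC2* were found among 10848 genes with a mean of at least 5 CPM, by the Euclidean distance between centred log2 levels. For *ABCG2* they were *NEXN* (distance 0.39), *E2F8* (0.42) and *AMIGO2* (0.42), and 8 genes lay within 0.5. For *ABCC2* they were *PPRC1* (0.06), *TWNK* (0.06) and *ORC5* (0.09), and 375 genes lay within 0.5, so its pattern was a common one. The log2 ratio between the lines was 2.23 for *NEXN* and 1.65 for *PPRC1*. A distance over 4 libraries is a description only.

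The genes beside each efflux gene on its chromosome did not share one direction in the comparison of the lines. Within 500 kb of *ABCG2*, 10 genes were compared, with a median log2 ratio of 0.01, from −1.52 for *FAM13A* to 2.57 for *SPP1*, which encodes osteopontin and went from 2053 to 12130 fragments. Within 500 kb of *ABCC2*, 11 genes had a median of 0.58, from −1.77 for the fatty acid desaturase *SCD* to 1.03 for *BLOC1S2*. The 34 genes near *MVP* had a median of −0.11, the 18 near *ABCC3* 0.17, the 17 near *ABCC5* −0.10 and the 5 near *ABCC4* 0.18. Near *ABCC1*, 5 genes had a median of −0.93, and near *ABCB1*, 11 had a median of −0.09.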

How the data were processed

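RNA of 4 cultures, 1 per condition, was sequenced strand-specifically. The submitters' processing notes name bcl2fastq, Trimmomatic 0.36, HISAT2 and GRCh38.p13, and the counting tool is not given in the sources used here. The deposited values are estimated counts (expected counts) per Ensembl gene that the authors had multiplied by 1 factor per library, with the R-U87MG and U87MG pairs scaled separately. Each library's factor was found from the steps between low values and divided out. Between 93.4% and 94.1% of values above 0 were then whole fragments within 0.02, and all were rounded. Fragments per library ranged from 12596072 to 20027866, so 3 fragments equal 0.150 to 0.238 CPM. The interval of a count of 0 had an upper limit of 0.184 to 0.293 CPM. Intervals cover counting error only.

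Each pair of libraries was scaled by TMM in edgeR 4.0.16 (R 4.3.3). Log2 ratios used a pseudocount of 0.5 and genes with a mean of at least 1 CPM, and their intervals are exact binomial (Clopper-Pearson) intervals without it, from scipy 1.17.1. A call is a 2-fold difference. Because no condition had a replicate, no count model was fitted and no p-value is given. TPM used summed exon lengths of GENCODE release 29 and total fragments, without TMM. Scripts were tested on simulated data. Alternatives were DESeq2 1.42.0 size factors, total fragments, upper quartiles, TMM over all 4 libraries, other pseudocounts, filters and thresholds, and thinning.

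The genes and lists were chosen with earlier results of these data known. All 8 genes are named. Genes named from a list were taken, not exhaustively, from the 4 with the largest log2 ratio between the lines in either direction and the 2 of highest level, with exceptions stated. One gene of a list is counted there but not reported here by name.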

Additional observations from a re-analysis of the deposited data

How the results depend on the processing

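Across 161 recalculations of 21 log2 ratios, under other scalings, pseudocounts and thinning, all kept their sign and their side of 2-fold, and 155 stayed inside the counting interval. The other 6 were ratios between the lines with scaling by total fragments, which moved the median of all genes by 0.26 and the median of the efflux genes from −0.67 to −0.41. Thinning to the smallest total moved *ABCG2* with si-LINC00461 from −1.34 to −1.01, only just past 2-fold. The thinning was a single random draw, so it cannot show whether this call would hold in other draws. At 1.5-fold, 4 efflux genes were lower between the lines in place of 0. Without a filter on low counts, *ABCB1* added 1 gene lower between the lines and 1 higher with si-HDAC6, from 1 to 5 fragments. The 1 gene lower with si-LINC00461, *ABCG2*, became 0 when its interval had to lie wholly beyond 2-fold, and 0 at a mean of at least 5 CPM, where it was not compared. Over all genes, dropping the filter gave 4772 higher and 5793 lower between the lines, 2465 and 3050 in place of 91 and 98 with si-HDAC6, and 3799 and 4243 in place of 716 and 1079 with si-LINC00461. Intervals wholly beyond 2-fold gave 846 higher between the lines, 16 and 16 with si-HDAC6, and 380 and 631 with si-LINC00461. The 1.5-fold threshold gave 3077 and 3346, 352 and 330, and 1871 and 2222. A mean of at least 5 CPM gave 16 and 16 with si-HDAC6 and 442 higher with si-LINC00461, and a pseudocount of 5 gave 43 lower with si-HDAC6. No paired analysis was possible because each condition had 1 library, and leaving out a replicate was not possible for the same reason. Depth limits *ABCB1* in all 4 libraries and *ABCG2* in U87MG.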

Other observations

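*PPRC1* and *TWNK*, both linked to mitochondria, followed *ABCC2* closely over the 4 libraries. Both lie on the same chromosome 10, at 2.28 and 1.14 Mb beyond the end of *ABCC2*. *ORC5*, the third gene of most alike pattern, lies on chromosome 7. *PPRC1* had 849 fragments in U87MG si-NC and 2662 in R-U87MG si-NC, and *TWNK* had 178 and 565. The 94 genes compared within 5 Mb of *ABCC2* had a median log2 ratio of −0.17 between the lines, in a window chosen after the data were seen. Of these, 11.7% were at least 2-fold higher and 18.1% at least 2-fold lower, beside 11.2% and 15.0% of all genes compared. The 11 genes within 500 kb had a median of 0.58.

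*CHI3L1*, a secreted glioma marker, went from 2002 fragments with si-NC to 63189 with si-LINC00461 in U87MG, a log2 ratio of 5.17 (5.10 to 5.23), and *PECAM1* from 52 to 433. All 7 anchoring genes compared had log2 ratios below 0 there, and 6 had an interval below 0, from −0.95 to −0.12, with none past 2-fold. Over all genes in that comparison, 6630 of 13210 had a ratio below 0 and 33.4% an interval below 0. *ABCC9* differed in opposite directions, from 489 to 1512 fragments between the lines and from 489 to 163 with si-LINC00461.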
